A study of Homo sapiens with 12 samples.

Results

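The genes that write, maintain and erase DNA methylation were followed in HAP1 cells, a near-haploid adherent human line derived from chronic myelogenous leukemia, after loss of SETDB1. The set held 9 genes listed by name for their role, and all 9 were found among the 58735 gene IDs of the count tables. RNA sequencing compared wild-type HAP1 cells with a derivative carrying a SETDB1 knockout, grown in the same medium, with no treatment named in the labels. Each genotype had 3 libraries of a non-directional kit, which loses the strand of the RNA, with 8921959 to 10199215 gene counts each, and these 6 libraries carry every comparison given here. A further 3 libraries of each genotype came from a directional kit. The labels did not say whether the derivative was 1 clone, so clonal differences and the loss of SETDB1 cannot be told apart.

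DNA methylation at CpG sites is set and erased by a small group of enzymes. DNMT3A and DNMT3B place new methyl groups, and DNMT3L, which has no catalytic activity of its own, binds both and stimulates them. DNMT1 copies the pattern to the new strand after replication. It is brought there by UHRF1, which binds hemimethylated CpG and methylated H3K9, and it is helped by HELLS, a chromatin remodeler. The enzymes TET1, TET2 and TET3 oxidise methylcytosine, which opens the way to its removal. SETDB1, the gene knocked out, encodes a histone H3 lysine 9 methyltransferase that silences repeats and germline genes.

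Windows before a RefSeq start of each of the 3 maintenance genes are shown because UHRF1 and DNMT1 moved one way and HELLS the other. All 3 windows hold more CpG sites than the median RefSeq promoter. Each sequence holds the 250 bases before the RefSeq start (GRCh38.p14), 5′ to 3′ on the strand of the gene, with every CpG in capitals. The DNMT1 window lies on the minus strand at chr19:10194954-10195203, the UHRF1 window on the plus strand at chr19:4909251-4909500 and the HELLS window on the plus strand at chr10:94545538-94545787.
DNMT1: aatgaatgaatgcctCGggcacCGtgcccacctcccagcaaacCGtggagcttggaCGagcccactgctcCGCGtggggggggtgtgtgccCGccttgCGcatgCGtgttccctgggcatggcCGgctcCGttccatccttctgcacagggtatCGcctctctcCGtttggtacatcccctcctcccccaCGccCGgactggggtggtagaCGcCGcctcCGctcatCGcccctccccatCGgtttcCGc
UHRF1: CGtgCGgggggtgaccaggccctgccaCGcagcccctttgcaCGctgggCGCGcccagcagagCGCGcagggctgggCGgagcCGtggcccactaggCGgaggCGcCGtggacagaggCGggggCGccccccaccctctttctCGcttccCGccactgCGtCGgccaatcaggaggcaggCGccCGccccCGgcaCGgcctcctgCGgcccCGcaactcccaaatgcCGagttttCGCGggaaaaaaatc
HELLS: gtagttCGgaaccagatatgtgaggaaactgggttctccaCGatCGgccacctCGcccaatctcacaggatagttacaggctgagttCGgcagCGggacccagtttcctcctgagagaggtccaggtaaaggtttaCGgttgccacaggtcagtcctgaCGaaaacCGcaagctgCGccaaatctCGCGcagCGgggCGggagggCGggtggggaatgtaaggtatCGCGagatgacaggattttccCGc
These windows held 21, 28 and 18 CpG sites, against a median of 11 over 27305 RefSeq promoters of the same length. Of those promoters 70.2, 84.5 and 63.5% held fewer CpG sites than DNMT1, UHRF1 and HELLS. The RefSeq starts lay 19, 3 and 2 bases from the nearest transcript start of GENCODE 29. Letters bound by E2F factors, which drive genes of DNA replication, were searched on both strands as TTTCCCGC, TTTCGCGC, TTTGCCGC and TTTGGCGC. UHRF1 held TTTCCCGC on the reverse strand, HELLS held TTTCCCGC on the forward and TTTGGCGC on the reverse strand, and no other window of the 8 matched members held any of them. Of all promoters, 2.79% held one of these letter strings. That share was not adjusted for CpG content, and each of the strings itself holds a CpG. The windows of the other matched members held from 3 CpG sites in DNMT3B to 37 in TET3, with 21 in DNMT3A. Several of these starts lie inside the gene as GENCODE 29 bounds it. They lie 36333 bases from the gene start in DNMT1, 6421 in UHRF1, 44354 in HELLS and 17467 in DNMT3B. The RefSeq starts of TET1 and TET3 lie 319 and 1494 bases from the nearest annotated transcript start. A match of letters describes the sequence and does not show binding, and any part of E2F factors in these changes was not tested.

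The targeted gene was read first. SETDB1 had 63.8, 60.9 and 55.2 counts per 1000000 gene counts (CPM) in wild-type replicates 1 to 3, against 12.1, 10.8 and 11.6 in those of the knockout. Knockout libraries therefore still held SETDB1 reads, and every one lay below every wild-type library (log2 fold change -2.39, SE 0.079, edgeR adjusted p = 7e-43). Part of its exon sequence (13.4%) overlaps CERS2 on the opposite strand, and the kit cannot separate such reads. Across the transcriptome 7089 of 13778 genes tested passed the threshold, so 51.5% of genes were called, 25.5% higher and 25.9% lower. The call rule was an adjusted p under 0.05 in the quasi-likelihood test of edgeR, adjusted over all genes tested. Knockout libraries differed from each other by no more than sampling noise (chi-square per degree of freedom 0.956 to 0.991), whereas wild-type pairs gave 1.03 to 2.00, the 2 higher values both in pairs with replicate 2. They were counted as 3 libraries, as labelled. With their counts summed to 1 sample 6030 genes and the same number of methylation genes, 8, were called. Adjusted p-values below rest on this spread between libraries, which may be technical.

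Markers of blood cells were mostly absent, although the label names a leukemia. Of 12 blood genes, 8 stayed under 1 CPM in all 6 libraries, PTPRC, CD34, GATA1 and SPI1 among them, while KIT, GATA2, RUNX1 and TAL1 were present. The summed blood markers ranged from 130 to 134 CPM in wild-type libraries and from 104 to 107 in knockout libraries. Means of KIT, GATA2, RUNX1 and TAL1 were all lower in the knockout, GATA2 with 75.6 and 66.1 CPM and TAL1 with 16.1 and 3.24. The 7 fibroblast markers summed to 78.6 to 82.0 against 38.1 to 39.3 CPM, with DCN and LUM at 0 counts throughout. Most of that difference lay in PDGFRA, with means of 59.1 and 19.5 CPM, while COL3A1 had 4.59 and 0.536 and COL1A1 16.4 and 18.4. The 5 epithelial markers summed to 140.5 to 155.7 against 205 to 217 CPM, with EPCAM going from 3.74 to 39.7 and KRT8 from 83.1 to 115. The other 3 epithelial markers had lower means in the knockout, KRT18 with 59.1 and 55.4, CDH1 with 1.10 and 0.407 and KRT19 with 0.112 and 0 CPM. The part of these shifts in the results below was not tested.

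All 9 methylation genes were expressed well enough to be tested, and 8 of them passed the threshold. DNMT3L, TET1, DNMT3B, HELLS and TET3 rose in the knockout, whereas DNMT1, UHRF1 and TET2 fell, and DNMT3A did not pass. The same 8 genes had groups of libraries that did not overlap in CPM, as did 56.2% of all genes tested. Changes were modest in size. No member reached a log2 fold change of 1, which 7.8% of the genes tested passed together with the threshold, and 2 members, DNMT3L and TET1, reached 0.5, as 18.3% of genes did. The median absolute log2 fold change was 0.23 over the members and 0.19 over all genes tested. Among the 8909 genes tested with a mean CPM at least that of DNMT3A, the lowest member, 56.4% were called.

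**Figure D1:**
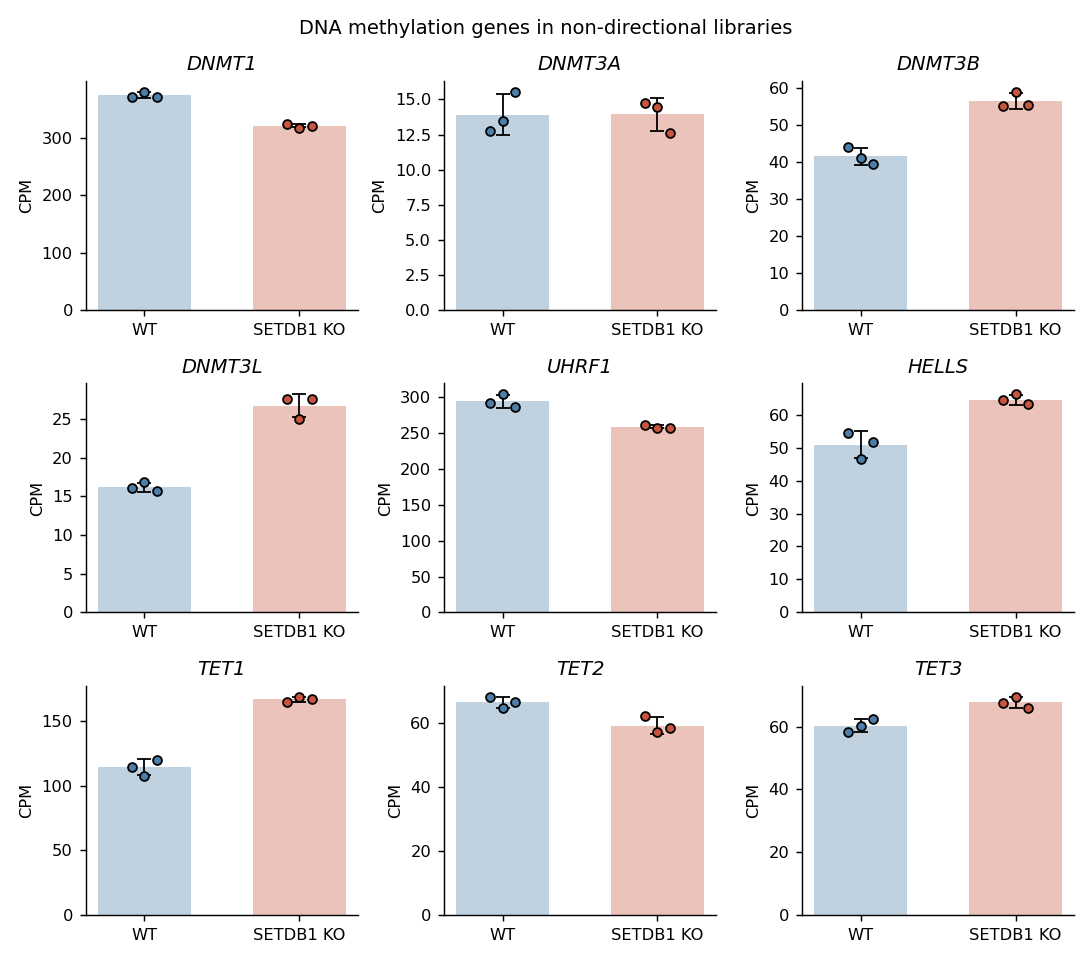
Counts per 1000000 gene counts (CPM, vertical axes from 0) of the 9 methylation genes in the 3 wild-type (WT) and 3 SETDB1 knockout libraries of the non-directional kit; bars are means, error bars SD, points libraries. The groups overlap in DNMT3A alone, and the widest gap relative to the mean is that of DNMT3L, from 16.2 to 26.7 CPM.

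The de novo genes were not changed alike. DNMT3L, the catalytically inactive partner, lies on the minus strand of chromosome 21 (44246339 to 44262216, GRCh38). It had 164, 150 and 147 counts in wild-type libraries, or 16.1, 16.8 and 15.6 CPM, and 269, 245 and 280 counts in knockout libraries. All knockout libraries lay above all wild-type libraries, and mean CPM went from 16.2 ± 0.59 to 26.7 ± 1.5 (SD, n = 3 each; 1.64-fold; log2 fold change 0.72, SE 0.086, edgeR adjusted p = 1.9e-11). Among all genes tested 12.1% had a larger absolute change. DNMT3L overlaps the antisense gene AP001059.1 over 13% of its exon bases, and reads there cannot be assigned by strand.

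DNMT3B, which methylates repeats and pericentromeric DNA, lies on the plus strand of chromosome 20 (32762385 to 32809356). Wild-type libraries had 43.9, 41.1 and 39.5 CPM and knockout libraries 54.9, 58.9 and 55.2. It rose 1.35-fold with no overlap between groups (log2 fold change 0.43, SE 0.059, edgeR adjusted p = 1.4e-09). DNMT3A, the other active de novo enzyme (chromosome 2, 25227855 to 25342590, minus strand), had 12.7, 13.5 and 15.5 CPM against 14.7, 14.5 and 12.6. Its groups overlapped, although the highest library was a wild-type and the lowest a knockout one, with means of 13.9 ± 1.5 and 13.9 ± 1.2 CPM (SD, n = 3 each). The log2 fold change was -0.0038 (edgeR adjusted p = 0.98), and its 95% interval reached from -0.21 to 0.20. On the linear scale that interval runs from 0.864-fold to 1.15-fold, and the estimates for DNMT3B and DNMT3L lie outside it. No exon of DNMT3A or DNMT3B overlaps an exon of another gene.

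The maintenance genes split in direction. DNMT1, on the minus strand of chromosome 19 (10133345 to 10231286), had 371, 379.9 and 372 CPM in wild-type libraries. Knockout libraries had 323, 318 and 321, so that every one was lower. It fell to 0.852-fold (log2 fold change -0.23, SE 0.029, edgeR adjusted p = 1e-10). UHRF1, its recruiting factor (chromosome 19, 4903080 to 4962154, plus strand), had 293, 304 and 286 CPM against 261, 257 and 258, a fall to 0.875-fold (log2 fold change -0.19, SE 0.031, edgeR adjusted p = 1.6e-07). The middle 50% of all genes tested spanned log2 fold changes of -0.20 to 0.19, so UHRF1 lay inside this span and DNMT1 just below it.

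HELLS, the remodeler (chromosome 10, 94501434 to 94613905, plus strand), moved the other way. Wild-type libraries had 54.4, 46.4 and 51.7 CPM and knockout libraries 64.4, 66.1 and 63.1. The wild-type libraries were the more scattered, replicate 2 being lowest, and the groups did not overlap (1.26-fold, log2 fold change 0.33, SE 0.055, edgeR adjusted p = 3.3e-07). DNMT1 shares 83 exon bases with S1PR2 and HELLS 438 with AL138759.1, both on the same strand.

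The erasers also differed among themselves. TET1, the enzyme typical of pluripotent cells (chromosome 10, 68560656 to 68694482, plus strand), had 1171, 962 and 1129 counts in wild-type libraries and 1613, 1653 and 1696 in knockout libraries. The knockout libraries lay close together and far above the wild type, with means of 114.3 ± 6.2 and 166.9 ± 1.8 CPM (SD, n = 3 each; 1.45-fold; log2 fold change 0.54, SE 0.039, edgeR adjusted p = 3.7e-21). It was the smallest adjusted p among the members.

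TET2, which lacks the CXXC DNA-binding domain of its relatives and is often mutated in leukemia (chromosome 4, 105145875 to 105279816, plus strand), had 68.1, 64.7 and 66.6 CPM against 62.1, 57.2 and 58.4. It fell to 0.885-fold (log2 fold change -0.18, SE 0.052, edgeR adjusted p = 0.0032), but did not pass with the Wald test of DESeq2 (adjusted p = 0.066). TET3 (chromosome 2, 73986404 to 74108176, plus strand) had 58.3, 60.1 and 62.4 CPM against 67.6, 69.5 and 66.1, a 1.12-fold rise with a narrow gap between groups (log2 fold change 0.16, SE 0.052, edgeR adjusted p = 0.0063). The TET3 call was lost with the DESeq2 Wald test (adjusted p = 0.092). It was also lost when all 12 libraries were fitted at once (edgeR adjusted p = 0.17) or wild-type replicate 1 was left out (edgeR adjusted p = 0.06). In the fit of all 12 libraries TET3 had a log2 fold change of 0.10. The median over all genes tested was -0.046 there, against -0.0012 in the main fit. No exon of the 3 TET genes overlaps an exon of another gene. The pseudogene TET1P1 and the antisense gene TET2-AS1 had 0 and 1 counts over the 6 libraries.

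**Figure D2:**
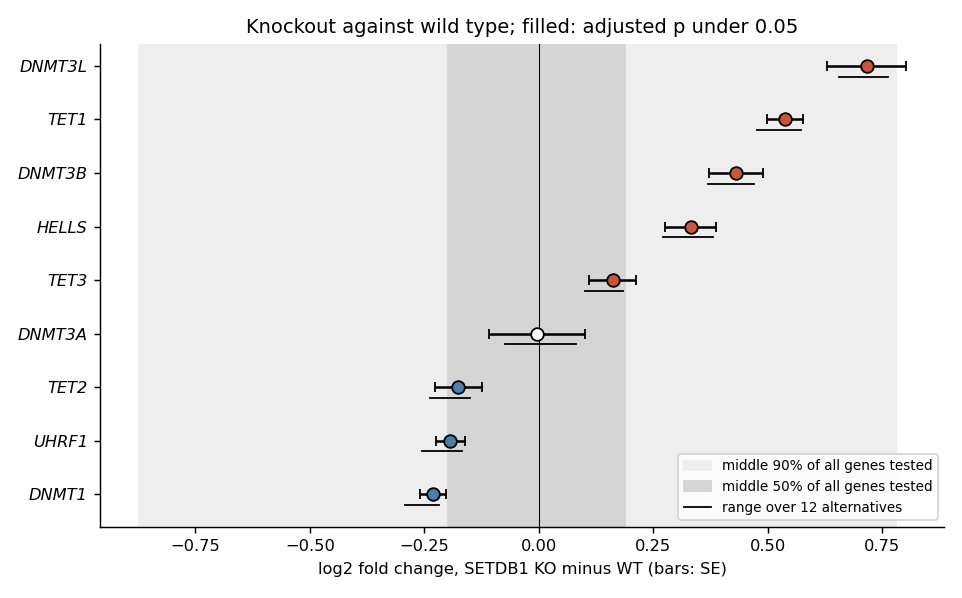
Log2 fold change of each member, knockout minus wild type (horizontal axis), with its SE; filled points passed an adjusted p of 0.05, thin lines give the range over 12 alternatives, and grey bands the middle 50% and 90% of all genes tested. Members run from -0.23 for DNMT1 to 0.72 for DNMT3L, all within the middle 90% band of -0.87 to 0.78.

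Levels of different genes were compared per 1000 exon bases. In the wild type UHRF1 was highest with 57.2 ± 1.8 CPM per 1000 bases (SD, n = 3), followed by DNMT1 with 38.2 ± 0.49 and TET1 with 12.3 ± 0.67. DNMT3B and DNMT3L stood next at 8.97 ± 0.48 and 8.70 ± 0.32, and their libraries overlapped. HELLS at 5.01 ± 0.40 and TET3 at 4.91 ± 0.16 also overlapped, with TET2 below them at 4.04 ± 0.11. DNMT3A was lowest at 1.16 ± 0.12.

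In the knockout the order was the same except that DNMT3L, at 14.4 ± 0.79 CPM per 1000 bases, stood above DNMT3B at 12.2 ± 0.47 (SD, n = 3 each), and no neighbours overlapped. UHRF1 and DNMT1 had 50.3 ± 0.39 and 32.7 ± 0.27, TET1 18.0 ± 0.19, HELLS 6.36 ± 0.15, TET3 5.52 ± 0.14, TET2 3.60 ± 0.15 and DNMT3A 1.16 ± 0.10. These levels divide by the union of all annotated exons. With the longest transcript instead, HELLS moved up from the sixth to the fourth place in the wild type, and DNMT1 stood above UHRF1 and TET2 above TET3 there, so the order of these genes depends on the length used.

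**Figure D3:**
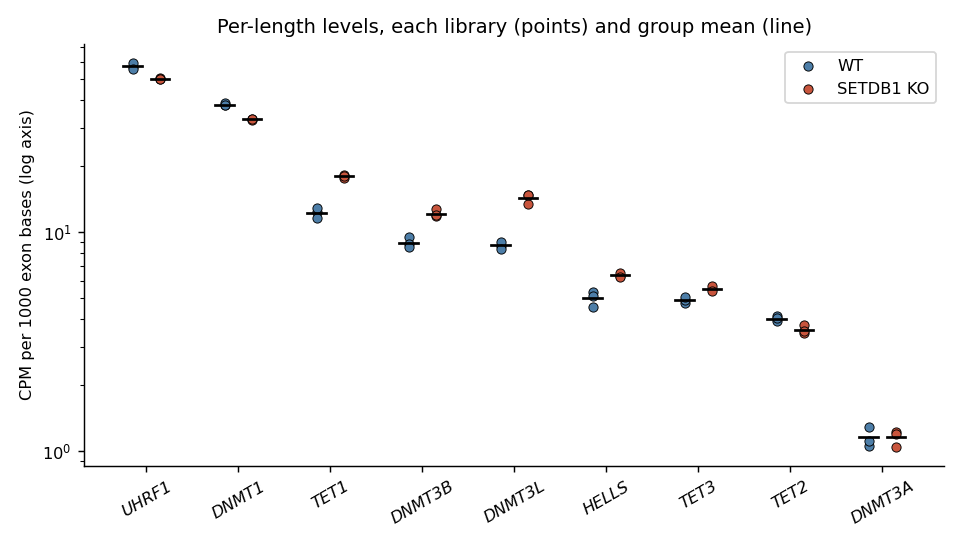
Per-length level of each member in CPM per 1000 exon bases (vertical log axis), points for single libraries and lines for group means, wild type and knockout side by side. UHRF1 and DNMT1 lie above the other members and DNMT3A lowest in both groups, and DNMT3L moves above DNMT3B in the knockout.

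The make-up of the 2 enzyme families was followed as a share of their summed per-length level, a measure that does not depend on depth or scaling. DNMT3L made up 45.1, 47.5 and 46.1% of the DNMT3 level in wild-type libraries, against 53.1, 49.1 and 53.3% in knockout libraries. Its share gained 5.62 points, while DNMT3B went from 47.6% ± 1.6 to 44.0% ± 2.2 and DNMT3A from 6.16% ± 0.82 to 4.19% ± 0.36 (SD, n = 3 each). The summed DNMT3 level was 1.47-fold that of the wild type.

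TET1 made up 58.2, 56.8 and 58.6% of the TET level in wild-type libraries, against 65.7, 66.5 and 66.8% in knockout libraries. TET2 went from 19.0% ± 0.60 to 13.3% ± 0.61 and TET3 from 23.1% ± 0.80 to 20.4% ± 0.37 (SD, n = 3 each), although the CPM of TET3 itself was higher. The summed TET level was 1.27-fold that of the wild type. For each of these 6 shares the groups did not overlap, with a two-sided exact permutation p of 0.1, the smallest that 3 against 3 libraries allow.

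**Figure D4:**
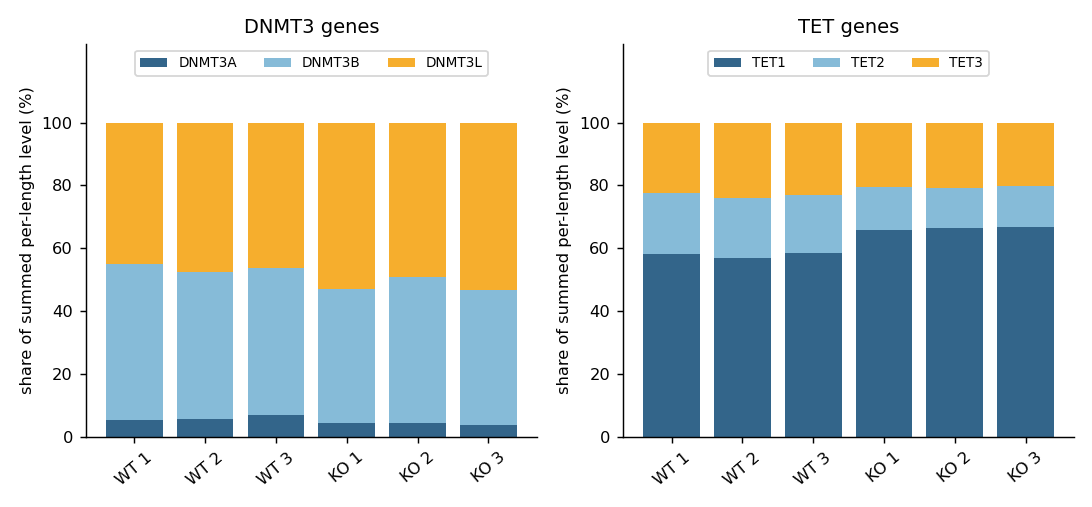
Share of each gene in the summed per-length level (%, vertical axis) of the DNMT3 genes and of the TET genes, 1 stacked bar per library. The share of TET1 lies at 56.8 to 58.6% in wild-type and 65.7 to 66.8% in knockout libraries, and that of DNMT3L at 45.1 to 47.5% and 49.1 to 53.3%.

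To see whether the members moved with their surroundings, each was set beside the tested genes within 2 Mb on either side. The surroundings of DNMT3L, DNMT3B, TET1 and HELLS had median log2 fold changes of 0.025 (42 genes), 0.020 (34), -0.051 (28) and -0.068 (25). TET3 had surroundings of -0.044 (43 genes) and DNMT3A of 0.086 (41). DNMT1 fell among genes with a median of 0.20 (90 genes), UHRF1 among genes with 0.062 (78) and TET2 among genes with 0.12 (10). Within 5 Mb on either side the medians ran from -0.027 to 0.084.

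In a search for similar patterns, the genes whose values over the 6 libraries were closest to the 3 members of largest change were found by Euclidean distance between centred log2(CPM + 0.5) values among 10981 genes. For DNMT3L they were KMT2D (distance 0.080) and WDTC1 (0.10), for TET1 C13orf42 (0.047) and GOLGB1 (0.050), and for DNMT3B LACTB2 (0.055) and TMEM38B (0.071). With 2 groups this measure mostly finds genes of a like fold change, such as 0.67 on the log2 scale for KMT2D.

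Other genes of the pathway were counted in 5 lists. Of their 51 genes 50 were tested and 25 called, 9 higher and 16 lower, a share of 50% beside the 51.5% of all genes. Among all genes tested 25.5% were called higher and 25.9% lower, shares to be read beside the count of each list below. DPPA3, which keeps UHRF1 from chromatin in the oocyte, had too few reads to be tested.

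Among 7 tested partners of maintenance 5 were called, 2 higher and 3 lower. CDCA7, which activates HELLS, rose most (180.7 ± 11.6 to 205 ± 2.6 CPM, log2 fold change 0.17, edgeR adjusted p = 2.6e-05). RBBP7, a histone-binding subunit of several chromatin complexes, fell most (437 ± 9.1 to 344 ± 2.7 CPM, log2 fold change -0.35, edgeR adjusted p = 7.1e-19). Only 3 partners were called, 1 higher and 2 lower, once knockout libraries were added up to 1 sample. The replication clamp PCNA, to which DNMT1 binds, had a log2 fold change of 0.015 and did not pass.

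Of 10 genes listed as methyl-CpG readers 5 were called, 2 higher and 3 lower, with a median log2 fold change of -0.0098. The list took genes by family name, and not all of their proteins, MBD5 among them, are known to bind methylated CpG. MBD5 rose most (12.3 ± 0.86 to 15.2 ± 0.93 CPM, log2 fold change 0.30, edgeR adjusted p = 0.013). That call was lost with DESeq2, with all 12 libraries fitted at once, without wild-type replicate 1 and without knockout replicate 3 (highest adjusted p = 0.16). MBD2, which recruits the NuRD repressor to methylated DNA, fell most (62.6 ± 2.4 to 46.1 ± 2.8 CPM, log2 fold change -0.45, edgeR adjusted p = 8.1e-11). Of 8 chromatin proteins that steer methylation 5 were called, 4 of them higher. CXXC1, which binds unmethylated CpG, rose most (118 ± 2.7 to 150.6 ± 3.1 CPM, log2 fold change 0.34, edgeR adjusted p = 2.7e-12), and the H3K36 methyltransferase NSD2 was the one that fell (log2 fold change -0.13, edgeR adjusted p = 0.00018).

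Of 14 TET partners and base excision genes 4 were called, all lower. Of all genes tested 51.5% were called, and 25.9% were called lower. GADD45G had the largest fall (7.62 ± 0.42 to 4.30 ± 0.47 CPM, log2 fold change -0.83, edgeR adjusted p = 6.4e-06), and NEIL2, a DNA glycosylase, the smallest (log2 fold change -0.21, edgeR adjusted p = 0.013). TDG, the glycosylase that removes the end products of TET oxidation, fell by 0.27 on the log2 scale (edgeR adjusted p = 2.4e-08). The count of this list was 2 without wild-type replicate 1 and also without knockout replicate 1, with DESeq2 and with the knockout libraries summed, NEIL2 losing its call in all 4 (highest adjusted p = 0.16).

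Of 11 genes of methyl donor and 2-oxoglutarate metabolism 6 were called, 1 higher and 5 lower. The isocitrate dehydrogenases, which make the 2-oxoglutarate that TET enzymes use, went opposite ways. Cytosolic IDH1 rose (213 ± 10.2 to 252 ± 3.1 CPM, log2 fold change 0.24, edgeR adjusted p = 4.5e-09), whereas mitochondrial IDH2 fell (48.2 ± 0.23 to 25.5 ± 0.81 CPM, log2 fold change -0.93, edgeR adjusted p = 2.5e-21).

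Since DNMT1, UHRF1 and HELLS are expressed with DNA replication, genes of the cell cycle were read beside them. Of 15 S phase genes 11 were called, beside 51.5% of all genes tested. These were 4 higher and 7 lower, and the median log2 fold change of the list was -0.054. Without knockout replicate 1, with DESeq2 and with the knockout libraries summed, 4 were higher and 4 lower. MCM5, a subunit of the replicative helicase, rose most (log2 fold change 0.30, edgeR adjusted p = 8.6e-14), and cyclin gene CCNE2 fell most (log2 fold change -0.87, edgeR adjusted p = 4.1e-10). Of 10 genes of G2 and M phase 2 were called, AURKB and AURKA, with log2 fold changes of -0.16 and -0.11 (edgeR adjusted p = 0.00017 and 0.011). That count was 5 without wild-type replicate 2 and 1 when wild-type replicate 1, knockout replicate 2 or knockout replicate 3 was left out, AURKA losing its call in these last 3 fits and also with DESeq2 and with the knockout libraries summed (highest adjusted p = 0.14). MKI67, a marker of proliferating cells, had 422 ± 22 and 419 ± 7.0 CPM (edgeR adjusted p = 0.63). The part of the cell cycle in the changes of the maintenance genes was not tested.

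**Figure D5:**
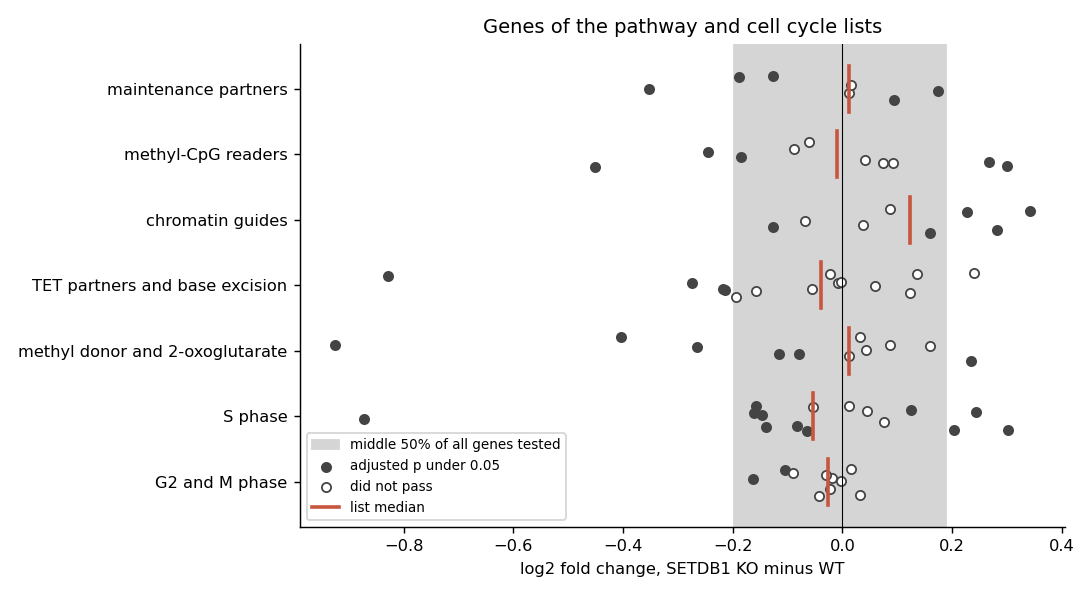
Log2 fold change, knockout minus wild type (horizontal axis), of the tested genes in 5 pathway lists and 2 cell cycle lists; filled points passed an adjusted p of 0.05, open points did not, red lines are list medians and the grey band the middle 50% of all genes. Medians lie between -0.054 and 0.12, and the lowest values are those of IDH2, CCNE2 and GADD45G.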

How the data were processed

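Total RNA of HAP1 cells was made into libraries with a non-directional or a directional kit of one maker. The authors deposited raw read counts per Ensembl gene for each library, in the layout of HTSeq. The submitters' processing notes name Trim Galore 0.4.4, STAR 2.6.0a, SAMtools 1.9, Picard 2.23.8, HTSeq 0.11.1, DESeq2 and bedtools on hg38, without saying which made which file, and the strand setting is not given in the sources used here. Groups and replicate numbers came from the sample titles.

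All 58735 gene IDs matched GENCODE 29 (GRCh38), from which symbols, positions, exon lengths and overlaps were taken. Closing lines of the tables were left out of library sizes: genes took 80.3 to 80.4% of listed reads with the non-directional kit and 5.23 to 5.30% with the directional kit. Counts of the 6 non-directional libraries were filtered (filterByExpr, minimum count 10, minimum total 15), given TMM factors and compared by quasi-likelihood F-tests (edgeR 4.0.16, run under R 4.3.3). P-values were adjusted over all genes by Benjamini-Hochberg. Each SE is approximate, obtained from the log2 fold change and its F value, as are the 95% normal intervals made from it. CPM are counts per 1000000 gene counts. A level of 3 counts, used as the detection floor, equals 0.294 to 0.336 CPM. In data simulated for this comparison with 13567 genes tested, 74% of 100 genes changed by 0.5 and 84% of 100 changed by 1 on the log2 scale were recovered. No other genes were changed there, whereas 51.5% were called in the real data. The adjustment of p-values depends on that share, so these rates need not hold for the real comparison.

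Reads were counted per gene, so isoforms and strands of origin are not separated. Lower RNA per cell and fewer expressing cells cannot be told apart in bulk libraries. Replicate numbers pair the genotypes only through the titles. The members and the gene lists were chosen with earlier results of these data known. Named genes were SETDB1, all members, in each list the called genes of largest and smallest log2 fold change, and the 2 genes closest in pattern to each of the 3 members of largest change. PCNA, TDG, DPPA3 and MKI67 were added after their values were seen. Alternatives were DESeq2 1.42.0, RLE factors, no filter, a replicate block, one fit over all 12 libraries, fold limits, summed knockout libraries and leaving out each library. Tables of L1 loci were not used here.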

Additional observations from a re-analysis of the deposited data

How the results depend on the processing

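Over 12 alternative fits the log2 fold changes of DNMT1, UHRF1, DNMT3B, DNMT3L, HELLS and TET1 kept their direction and passed the threshold each time, with a highest adjusted p of 0.0013 (UHRF1) among them. DNMT3A never passed, with adjusted p from 0.60 to 0.9996, and its log2 fold change of -0.0038 ran from -0.074 without wild-type replicate 1 to 0.081 without wild-type replicate 3, being positive also without knockout replicate 3 (0.068). TET2 had adjusted p from 0.00026 to 0.066 and TET3 from 0.0054 to 0.17. Over all genes 6394 to 7134 were called when 1 library was left out, 5027 with DESeq2 and 6030 with the knockout libraries summed to 1 sample, where that sample is assumed to vary like the wild type. Fitting the 12 libraries at once moved the split of calls from 3517 higher and 3572 lower to 2400 higher and 4170 lower. The median log2 fold change of all genes tested was -0.046 in that fit and -0.0012 in the main fit. Fold limits moved the counts by their construction. With at least 0.5 on the log2 scale 2515 genes, 2 members and 3 genes of the 7 lists were called, against 7089, 8 and 38, and with at least 1 the counts were 1074, 0 and 0, every one of these members and list genes that passed the threshold alone having a smaller change. Leaving out 1 library gave 7 to 8 members and 31 to 42 list genes. With the replicate block 7074 genes, 8 members and 38 list genes were called. Deviations of libraries with one number had a mean correlation of -0.010. Knockout libraries differed by no more than sampling noise, so this value cannot show whether the numbers pair the libraries. The block changed no member's call. Length of the longest transcript moved the gain of TET1 in the TET share from 8.47 to 9.46 points, and the changes of TET2 and TET3 from -5.72 to -7.52 and from -2.75 to -1.94. A floor in counts covers counting error only.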

Other observations

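The directional libraries had few counts listed under the methylation genes. They had 532021 to 676691 gene counts each, and 94.5 to 94.6% of their listed reads fell in no gene, and no test was made on them. The strand setting of the counting is not stated, and reads of the opposite strand in these counts cannot be told apart from reads of the named genes. The counts below are therefore given as listed under each gene. DNMT1 had 21, 25 and 14 counts in wild-type libraries, against 16, 9 and 15 after the knockout. DNMT3B had 7, 6 and 5 against 10, 9 and 8, and TET1 5, 4 and 4 against 9, 8 and 3. UHRF1, among the highest members in the other kit, had 5 to 9 counts in every directional library. DNMT3A, DNMT3L, HELLS and TET3 had at most 4 counts in any library, and TET2 at most 6. Per 1000000 gene counts the members had listed values of 3.32% (HELLS) to 25.9% (DNMT3B) of those with the non-directional kit. The smallest level that this number of gene counts can show, at 3 counts, was 4.43 to 5.64 CPM.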
